A study of Homo sapiens with 6 samples.

Results

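The genes described here encode the cytosolic ribosomal proteins. They were taken from the RIP-seq expression table by gene symbol, as the protein-coding genes RPSA, RPLP0, RPLP1 and RPLP2 and those whose symbol is RPL or RPS followed by a number and an optional A, X, L, L1 or AL. This gave 85 of 58302 genes in the table, 53 of the large and 32 of the small ribosomal subunit by symbol. Genes of the RPS6K kinase family and copies on the Y chromosome were not included. Of the 85 genes, 8 are paralogues with a symbol that ends in L or L1 (RPL3L, RPL7L1, RPL10L, RPL22L1, RPL26L1, RPL36AL, RPL39L and RPS27L).

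The small subunit decodes mRNA and the large subunit forms peptide bonds, and each protein is needed in about equal amounts, so that their genes are among the most abundantly transcribed in growing cells. Most of their mRNAs begin with a C and a run of pyrimidines, the 5′ terminal oligopyrimidine (TOP) tract, through which mTOR signalling controls their translation. Many members have processed pseudogenes, near-identical intronless copies to which short reads can also align.

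The cell lines SW480 and DLD-1, which grow as epithelium and derive from human colorectal tumours, were wild type and untreated according to the labels. From each, RIP-seq sequenced RNA pulled down with the RNA acetyltransferase NAT10, acRIP-seq sequenced RNA fragments carrying N4-acetylcytidine (ac4C), and an Input library served as reference. The 6 groups held 1 library each, so every difference compares libraries and no p-value was computed. Levels are FPKM, fragments per kilobase of gene model scaled to library size. The library totals solved from the values of the RIP-seq expression table lay between 13498777 and 29628966 reads.

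The RIP and Input libraries went against their labels. KRT20, an intestinal keratin, was at 0 FPKM in RIP labelled SW480 and 29.2 in its Input, but at 23.9 in RIP labelled DLD-1 and 0.043 in its Input. CDX2, an intestinal transcription factor, was at 4.31 and 33.4 FPKM in RIP and Input labelled SW480, and at 28.3 and 7.0 in those labelled DLD-1. Libraries are therefore named by label, and each RIP/Input ratio is given over the Input of the same label and over that of the other label. The epithelial markers EPCAM, CDH1, KRT8, KRT18 and KRT19 were at 54.1 FPKM or more in all 4 libraries, whereas VIL1 was at 1.24 or less, and PTPRC, COL1A1, COL3A1 and PECAM1, markers of leukocytes, fibroblasts and endothelium, were at 0.381 or less.

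The transcript starts are shown first, because they are a shared feature that the choice of genes did not use. RefSeq start windows (GRCh38.p14) were found for 68 of the 85 members, and not for RPL30, RPL37, RPS20 and others. A tract was a C followed by at least 4 bases that are each C or T, on the gene's own strand, starting within the first 10 bases. It was present in 54 of the 68 members (79.4%), against 26.4% of the 14746 protein-coding genes with a window. A tract that opened at the annotated first base was present in 47 members (69.1%), against 6.31% of all protein-coding genes. The following lines give 30 bases each, from 5 bases before the annotated start, with the tract in capitals, for members with high or low RIP/Input ratios and for 3 genes beside their paralogue.
RPS23: cttctCTCTTTCgctcaggcccgtggcgcc (chr5:82278330-82278359, minus strand)
RPL41: cctttCTCTCggccttagcgccattttttt (chr12:56116628-56116657, plus strand)
RPS3A: ttccgCCCTTTTggctctctgaccagcacc (chr4:151099623-151099652, plus strand)
RPS24: tggttCTCTTTTCCTCCTTggctgtctgaa (chr10:78033858-78033887, plus strand)
RPL31: gcgctCTTCCTTTCCaacttggacgctgca (chr2:101002284-101002313, plus strand)
RPS21: tgcttCCTTTCTCTCTCgcgcgcggtgtgg (chr20:62387098-62387127, plus strand)
RPLP2: gccttCCTTTTCCTCCCTgtcgccaccgag (chr11:809962-809991, plus strand)
RPS27: tcgctCCTTTCCggcggtgacgacctacgc (chr1:153990757-153990786, plus strand)
RPS27L: cgagcgcagatcgcttgcagcttgctagct (chr15:63157453-63157482, minus strand)
RPL26: tagttCTCTTCCCTTTTgcggccatcaccg (chr17:8383169-8383198, minus strand)
RPL26L1: gggtcggcgaacgaaacgcggagctcggga (chr5:172958724-172958753, plus strand)
RPL36A: ggtttCTTTCTTTCCgcgccgatagcgctc (chrX:101391006-101391035, plus strand)
RPL36AL: cctttcctgttaggcgagagctgcgaaagg (chr14:49620602-49620631, minus strand)
Tracts were 5 to 19 bases long, with a median of 8. In each of these 3 pairs the gene had a tract by this definition and the paralogue had none, whereas RPL22 and its paralogue RPL22L1, not printed, both had one. In RPL36AL a run of pyrimidines crosses the annotated start. It was not counted because too few of its bases lie from the annotated first base onward to meet the definition. A match to these letters is a description of the annotated start and no measurement of where transcription began in these cells.

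All but RPL10L, a testis copy of RPL10 that was listed at 0 in every column, were above 0 in at least 1 RIP-seq library. Together the 85 genes made up 5.05% of the FPKM sum in RIP labelled SW480, 4.13% in its Input, 7.0% in RIP labelled DLD-1 and 3.26% in its Input. Of the solved reads they held 3.42% and 3.78% in RIP and Input labelled SW480, and 5.42% and 2.96% in those labelled DLD-1. Under the SW480 labels the order of RIP and Input was thus reversed when reads were used. An Input of at least 1 FPKM in both lines was reached by 81 members, and RPL3L, RPL10L, RPL17 and RPL39L did not reach it. Over these 81 members the median level was 189.5 FPKM (range 2.70 to 1018) in RIP labelled SW480 and 177 (1.55 to 1204) in its Input. In libraries labelled DLD-1 it was 312 FPKM (3.21 to 1579.9) in RIP and 139.8 (2.68 to 961) in Input. The most and the least abundant members thus lay hundreds-fold apart in each library. In bulk RNA, fewer cells with a transcript and less of it per cell cannot be told apart.

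**Figure D1:**
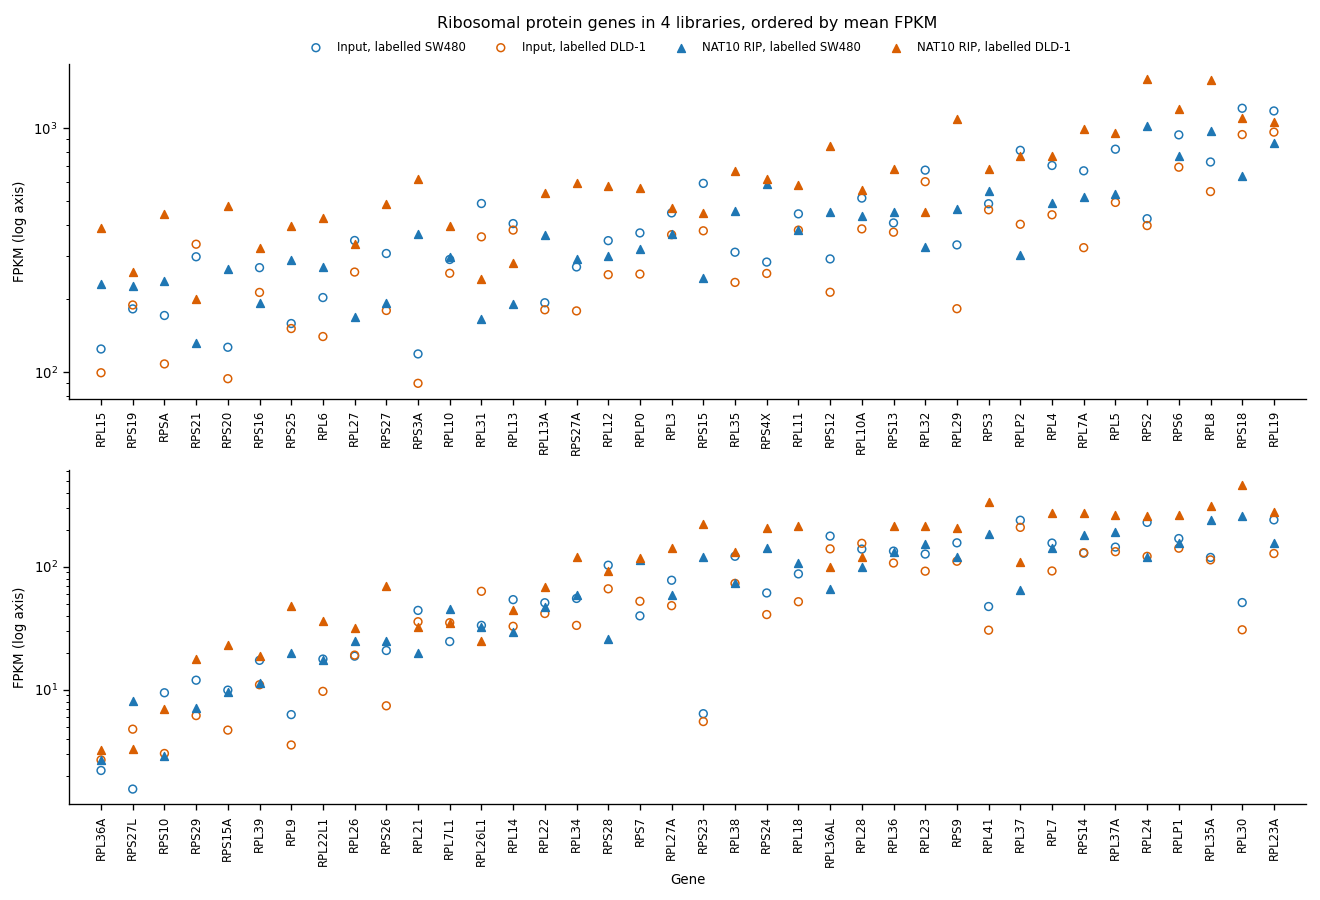
FPKM on a log axis of members with an Input of at least 1 FPKM in both lines, a few of them not shown, ordered by their mean over 4 libraries, with the higher members in the upper panel. Each symbol is 1 library, and the filled orange triangles (RIP labelled DLD-1) lie above the filled blue ones (RIP labelled SW480) for all members shown but 3.

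At the top, RPS18, a small subunit head protein, stood at 635 FPKM in RIP and 1204 in Input labelled SW480, and 1095 and 939 in those labelled DLD-1. RPL19, a large subunit protein, stood at 870.2 FPKM in RIP and 1174 in Input labelled SW480, and 1060.2 and 961 in those labelled DLD-1. These 2 members were highest in the Inputs, whereas RPS2, which lies near the entry of the mRNA channel, was highest in both RIP libraries, at 1018 FPKM in RIP and 425 in Input labelled SW480, and 1579.9 and 398 in those labelled DLD-1. At the bottom, RPL36A stood at 2.70 FPKM in RIP and 2.20 in Input labelled SW480, and 3.21 and 2.68 in those labelled DLD-1. RPS10, a small subunit protein whose gene is mutated in Diamond-Blackfan anaemia, stood at 2.88 FPKM in RIP and 9.42 in Input labelled SW480, and 6.94 and 3.02 in those labelled DLD-1, and RPL17 at 2.07 FPKM in RIP and 1.27 in Input labelled SW480, and 5.78 and 0 in those labelled DLD-1. RPL36A, RPS10 and RPL17 each overlap an annotated readthrough gene (RPL36A-HNRNPH2, RPS10-NUDT3 and RPL17-C18orf32), and these 3 genes were listed at 0 in all 4 columns. How reads in the overlap were counted is not given in the sources used here, and their part in the low levels was not tested.

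Input levels were compared between lines next. The Input labelled SW480 was higher for 71 of the 81 members, with a median log2((FPKM + 1)/(FPKM + 1)) of 0.42, against -0.03 over all 12324 genes with such Inputs. At least 2-fold higher were 4 members (RPL7A, RPLP2, RPS10 and RPS26), where 7.25% of all genes were, and at least 2-fold lower was RPS27L, where 9.29% were. The RIP libraries had the opposite order. RIP labelled DLD-1 was higher for 78 of the 81, with a median log2 difference, SW480 minus DLD-1, of -0.69 against 0.02 over all genes. At least 2-fold higher in RIP labelled DLD-1 were 13 members, where 6.17% of all genes were, and at least 2-fold higher in RIP labelled SW480 was RPS27L, where 7.6% were. The 3 members that were higher in RIP labelled SW480 were the paralogues RPL7L1, RPL26L1 and RPS27L. The same 3 paralogues were higher in the Input labelled DLD-1, at log2 differences of -0.49, -0.90 and -1.18. In the second table of Inputs, described further on, 6 members were at least 2-fold higher for SW480 and 0 were at least 2-fold lower, where 9.52% and 9.6% of all genes were.

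Which members were enriched with NAT10 was then read from the RIP/Input ratio, log2((RIP FPKM + 1)/(Input FPKM + 1)). In libraries labelled SW480 the 81 members had a median of -0.05, with 12 members at least 2-fold above Input and 12 at least 2-fold below it, where 15.6% and 16.0% of all 12324 genes were. In libraries labelled DLD-1 the median was 0.98, with 39 members at least 2-fold above Input and 1 (RPL26L1) at least 2-fold below it, where 15.1% and 19.2% of all genes were. The members' count above Input was thus near the share of all genes under the SW480 labels and far over it under the DLD-1 labels. The 12324 genes include 10350 protein-coding genes. Of these, 1801 were at least 2-fold above and 949 below Input under the SW480 labels, and 1727 and 1323 under the DLD-1 labels. Over the other-label Input the medians were 0.27 for RIP labelled SW480 and 0.61 for RIP labelled DLD-1, where all genes had 0.02 and -0.00. There, 20 and 28 members were at least 2-fold above Input (9.24% and 9.36% of all genes), and 6 and 2 were at least 2-fold below it (11.7% and 11.8%). Counting error was small beside the 2-fold limit, since its median SE was 0.025 and 0.027 on the log2 scale, and 78 of the 81 members had at least 100 reads in each of the 4 libraries.

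The signs of the ratio depended on the pairing. With the labels as given, 35 members were above Input in both lines, 9 below it in both and 37 (45.7%) had opposite signs, where 43.6% of all genes had. Of all 12324 genes, 3479 were above Input in both lines and 3467 below it in both. Of these 37 members, 35 were below Input under the SW480 labels and above it under the DLD-1 labels, and only RPL7L1 and RPS27L had the reverse order. Signs were counted without a margin, and some lay within counting error, such as that of RPL22L1 under the SW480 labels (-0.02, counting SE 0.070). Over the other-label Input, 59 members were above Input in both, where 5073 of the 12324 genes were. There, 4 members (4.94%) had opposite signs, against 18.3% of all genes. RPL24 and RPS16 were among these 4, and in all 4 RIP labelled SW480 was below and RIP labelled DLD-1 above the other Input, by 0.60 or less on the log2 scale. Across the 81 members the Spearman rho between the ratios of both lines was 0.66 with the labels as given and 0.97 over the other-label Input. These points share their gene models and libraries and are not independent.

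**Figure D2:**
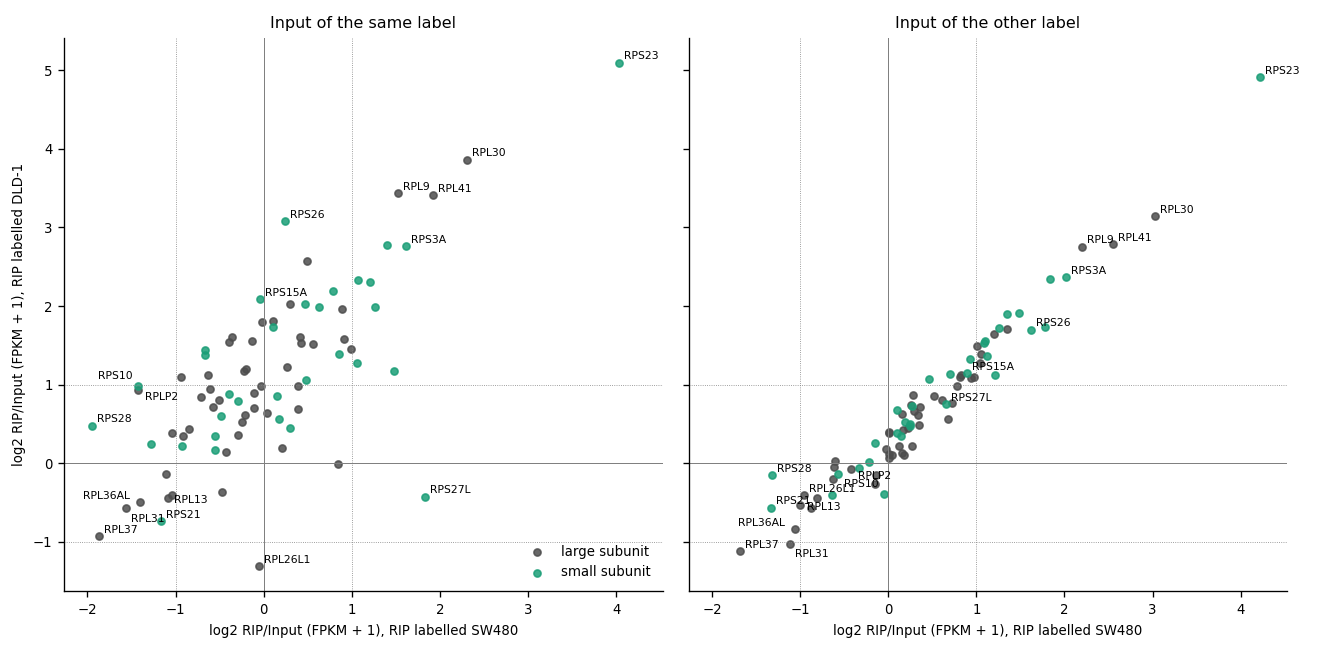
log2 RIP/Input of 81 members in libraries labelled SW480 (horizontal) and DLD-1 (vertical), over the Input of the same label on the left and of the other label on the right, with 1 point per gene, dotted lines at 2-fold and green points for the small subunit. On the left 37 members lie in the quadrants of opposite sign and on the right 4 do, and RPS23 and RPL30 lie at the upper right of both panels.

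The median ratio of small subunit genes was above that of large subunit genes in both lines, a difference that was not tested. The medians were 0.21 and -0.20 under the SW480 labels, and 1.22 and 0.93 under the DLD-1 labels. Over the other-label Input they were 0.56 and 0.22 for RIP labelled SW480, and 0.91 and 0.45 for RIP labelled DLD-1. The order of the 2 subunits was thus the same under both pairings. RIP was at least 2-fold above Input under both labels for 11 members, where 3.55% of all genes were, and 8 of them belonged to the small subunit (among them RPS2, RPS3A, RPS4X, RPS7, RPS20, RPS23 and RPS24) and 3 to the large one (RPL9, RPL30 and RPL41). Over the other-label Input 20 members were, where 5.59% of all genes were, and all 11 were among these 20.

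Where a gene's ratios are given as a pair from here on, the first is for RIP labelled SW480 and the next for RIP labelled DLD-1, and "the other Input" is the Input of the opposite label. RPS23, a protein of the decoding centre, had the highest ratio. It stood at 119.9 FPKM in RIP and 6.37 in Input labelled SW480, and 221 and 5.50 in those labelled DLD-1. Both RIP libraries were far above both Inputs, and the log2 ratios were 4.04 (counting SE 0.071) and 5.09 (0.077), and 4.22 and 4.91 over the other Input. RPL30, a large subunit protein next to the subunit interface, came next. It stood at 256 FPKM in RIP and 51.0 in Input labelled SW480, and 459 and 30.6 in those labelled DLD-1. Its log2 ratios were 2.31 (counting SE 0.051) and 3.86 (0.066), and 3.02 and 3.15 over the other Input, so that it too was above both Inputs in each RIP library.

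RPL41, the smallest ribosomal protein, stood at 183 FPKM in RIP and 47.4 in Input labelled SW480, and 332 and 30.4 in those labelled DLD-1, which gave log2 ratios of 1.93 (counting SE 0.068) and 3.41 (0.085). RPL9 stood at 19.8 FPKM in RIP and 6.26 in Input labelled SW480, and 48.1 and 3.54 in those labelled DLD-1, which gave 1.52 (counting SE 0.097) and 3.43 (0.11). RPS3A, which lies near the exit of the mRNA channel, stood at 366 FPKM in RIP and 119 in Input labelled SW480, and 615 and 89.9 in those labelled DLD-1, which gave 1.62 (counting SE 0.030) and 2.76 (0.034). In all 3 genes both RIP libraries were above both Inputs, and RIP labelled DLD-1 was the highest of the 4. RPS24, a small subunit protein whose gene is mutated in Diamond-Blackfan anaemia, stood at 142 FPKM in RIP and 61.1 in Input labelled SW480, and 205 and 40.8 in those labelled DLD-1, which gave 1.21 and 2.30. Here, too, each RIP library was above both Inputs.

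At the low end stood RPL37, a zinc-binding large subunit protein, at 64.4 FPKM in RIP and 238 in Input labelled SW480, and 109 and 209 in those labelled DLD-1. RPL31, at the exit of the peptide tunnel, stood at 165 FPKM in RIP and 490.2 in Input labelled SW480, and 240.4 and 358 in those labelled DLD-1. In both genes each RIP library was below both Inputs, with log2 ratios of -1.87 (counting SE 0.015) and -0.93 (0.014) for RPL37 and -1.57 (counting SE 0.025) and -0.57 (0.026) for RPL31, and these were the only 2 members at least 2-fold below Input in both lines over the other Input (-1.68 and -1.12, and -1.12 and -1.02). RPS21, a small subunit protein, stood at 132 FPKM in RIP and 297 in Input labelled SW480, and 199.8 and 334 in those labelled DLD-1. RPL13, a large subunit protein, stood at 190.2 FPKM in RIP and 406 in Input labelled SW480, and 280.0 and 382 in those labelled DLD-1, and RPL36AL, a paralogue that gives nearly the same protein as RPL36A, at 66.4 FPKM in RIP and 177 in Input labelled SW480, and 98.7 and 139.5 in those labelled DLD-1. All 3 were below both Inputs in each RIP library, with log2 ratios of -1.16 and -0.74, -1.09 and -0.44 and -1.40 and -0.50. No member was at least 2-fold below Input under both labels, where 7.29% of all genes and 130 of the 10350 protein-coding genes were.

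The members that depended most on the label were then examined. RPS28, which lies at the mRNA exit, stood at 25.8 FPKM in RIP and 103 in Input labelled SW480, and 92.3 and 66.0 in those labelled DLD-1. RPS10 and RPLP2 had log2 ratios of -1.42 and 0.98 and of -1.43 and 0.93, and the counting SE of RPS10, with 32 to 137 reads per library, was the largest of all at 0.18 and 0.22. RPS28 was below its Input under the SW480 labels (-1.95) and above it under the DLD-1 labels (0.48), and over the other Input it was below in both (-1.32 and -0.15). RPS26, which contacts mRNA upstream of the start codon, stood at 24.8 FPKM in RIP and 20.8 in Input labelled SW480, and 69.8 and 7.38 in those labelled DLD-1. RPS15A, a small subunit protein, stood at 9.60 FPKM in RIP and 9.90 in Input labelled SW480, and 23.1 and 4.68 in those labelled DLD-1. Under the DLD-1 labels these 2 genes were at 3.08 and 2.09, and under the SW480 labels at 0.25 and -0.04. Over the other Input RPS26 was at 1.62 and 1.70 and RPS15A at 0.90 and 1.15, so that both lay above Input by a like amount in both lines.

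The stalk proteins RPLP0, RPLP1 and RPLP2 recruit the elongation factors to the large subunit, and RPSA is a small subunit protein also known as a laminin receptor. RPLP2 stood at 300.3 FPKM in RIP and 809.6 in Input labelled SW480, and 768 and 403 in those labelled DLD-1. RPLP0 stood at 319 FPKM in RIP and 371 in Input labelled SW480, and 569 and 252 in those labelled DLD-1, and RPLP1 at 157 FPKM in RIP and 169 in Input labelled SW480, and 262 and 141 in those labelled DLD-1. All 3 had a log2 ratio below 0 under the SW480 labels (-1.43, -0.22 and -0.11) and near 1 under the DLD-1 labels (0.93, 1.17 and 0.89). Over the other Input RPLP0 and RPLP1 were above it in both lines (0.34 and 0.61, and 0.15 and 0.63), and RPLP2 was below it in both (-0.42 and -0.08). RPSA stood at 236 FPKM in RIP and 170.5 in Input labelled SW480, and 442 and 108 in those labelled DLD-1, with log2 ratios of 0.47 (counting SE 0.023) and 2.02 (0.028), and 1.12 and 1.37 over the other Input.

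Members known from signalling and disease covered a range of ratios. RPS6, the target of the S6 kinases, stood at 766 FPKM in RIP and 937 in Input labelled SW480, and 1193 and 691 in those labelled DLD-1, with log2 ratios of -0.29 and 0.79. RPL5 and RPL11, which bind 5S rRNA and the p53 regulator MDM2, had log2 ratios of -0.61 and 0.94, and of -0.22 and 0.61. RPS19, the gene most often mutated in Diamond-Blackfan anaemia, stood at 224 FPKM in RIP and 181 in Input labelled SW480, and 257 and 188 in those labelled DLD-1 (0.30 and 0.45), and RPS14, lost with a chromosome arm in a myelodysplastic syndrome, at 180.0 FPKM in RIP and 129 in Input labelled SW480, and 272 and 130.0 in those labelled DLD-1 (0.48 and 1.06). RPS19 and RPS14 were above Input under both labels and over both Inputs. RPS6, RPL5 and RPL11 were below it under the SW480 labels only, and over the other Input they were at 0.15 and 0.35, at 0.12 and 0.22 and at 0.01 and 0.39. RPS27A, which is made as a fusion with ubiquitin, had log2 ratios of 0.10 and 1.73, and RPL10A, a large subunit protein of the L1 stalk, -0.24 and 0.52.

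The paralogues were set beside the genes they resemble. RPS27L, a p53-responsive copy of RPS27, stood at 8.09 FPKM in RIP and 1.55 in Input labelled SW480, and 3.29 and 4.77 in those labelled DLD-1. RPS27 itself stood at 192 FPKM in RIP and 306 in Input labelled SW480, and 489 and 179 in those labelled DLD-1. In RPS27 the RIP library labelled DLD-1 was the highest of the 4, and in RPS27L it was RIP labelled SW480, so that the log2 ratios had opposite signs in the pair (1.83 and -0.43 for RPS27L and -0.67 and 1.45 for RPS27). Over the other Input both genes were above it in both lines (0.66 and 0.75, and 0.10 and 0.67). RPL7L1, a nucleolar paralogue of RPL7, stood at 45.0 FPKM in RIP and 24.6 in Input labelled SW480, and 34.8 and 35.0 in those labelled DLD-1, and RPL7 at 141 FPKM in RIP and 155 in Input labelled SW480, and 272 and 92.2 in those labelled DLD-1. RPL7L1 had ratios of 0.84 and -0.01 and RPL7 of -0.14 and 1.55, again of opposite order. RPL26L1 stood at 32.1 FPKM in RIP and 33.3 in Input labelled SW480, and 24.8 and 63.0 in those labelled DLD-1, and RPL26 at 24.9 FPKM in RIP and 18.7 in Input labelled SW480, and 31.4 and 19.1 in those labelled DLD-1. RPL26L1 was the member with the lowest ratio under the DLD-1 labels (-1.31). It was below Input in every pairing, but under the SW480 labels within counting error (-0.05, counting SE 0.091), whereas RPL26 was above Input (0.39 and 0.69). RPL22L1 and RPL22 had ratios of the same order, at -0.02 and 1.80 and at -0.11 and 0.70, with RIP labelled DLD-1 at 36.1 and 68.3 FPKM. RPL36AL was far more abundant than RPL36A per length, at 177 against 2.20 FPKM in the Input labelled SW480. RPL3L, a copy used in heart and skeletal muscle, was at 0.340 FPKM or less in all libraries and RPL39L, a testis copy, at 0.181 or less, while RPL3 was at 449 and RPL39 at 17.3 in the Input labelled SW480. RPL10, the parent of RPL10L, had log2 ratios of 0.03 and 0.64.

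The Inputs were deposited in a second table, with the acRIP-seq data, whose values for a member could differ widely from those of the RIP-seq table. Both tables have 1 Input column per line. The solved reads of genes with at most 20 reads were equal in 39.3% (SW480) and 41.0% (DLD-1) of genes for columns of the same label, against 7.11% and 4.90% for columns of the other label. The other label is another cell line, so these shares cannot tell the same library from the same line. Solved read totals were 14617145 (SW480) and 13498777 (DLD-1) in the RIP-seq table, and 11007688 and 10817661 in the acRIP-seq table. The gene model of the acRIP-seq table was longer for 71 of the 84 members above 0. After scaling both tables to the same median of protein-coding genes, 12 members were at least 2-fold higher in the acRIP-seq table for SW480 and 11 for DLD-1, where 3.57% and 3.68% of all genes were. At least 2-fold lower were 3 members in each line, where 7.38% and 7.6% of all genes were. The 11 members that were higher in both lines were RPL7, RPL9, RPL13A, RPL21, RPL39, RPL41, RPS3A, RPS23, RPS26, RPS29 and RPSA, and RPL35A and RPS13 were lower in both. Members with very high ratios were thus among those whose Input value depended on the table.

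**Figure D3:**
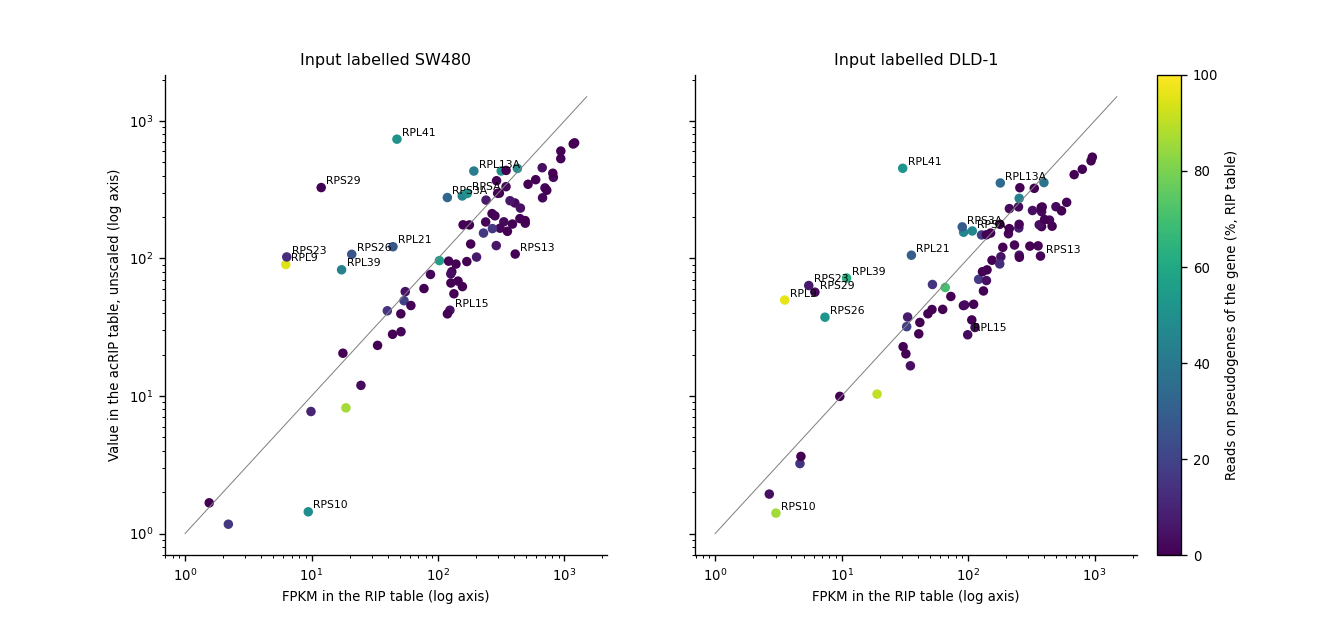
Input values of 81 members in the RIP-seq table (horizontal) and the acRIP-seq table (vertical, unscaled) on log axes, with the line of equality, 1 point per gene, and colour giving the share of reads that lay on pseudogenes of the gene in the RIP-seq table. RPS29, RPL41, RPS23 and RPL9 lie far above the line in both panels, and RPS10 lies below it.

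RPS29, a zinc-binding small subunit protein, had the largest gap for SW480 and RPL41 that for DLD-1. RPS29 was at 11.9 and 6.15 FPKM in the Inputs of the RIP-seq table and 328 and 56.9 in those of the acRIP-seq table. RPL41 was at 47.4 and 30.4 in one and 737 and 453 in the other, and RPS23 at 6.37 and 5.50, against 103 and 63.6. The difference lay in the number of reads and not only in the length, since RPS23 had 320 and 255 solved reads in the RIP-seq table and at least 4747 and 2891 in the acRIP-seq table. RPL9 had 197 and 103 reads in the one and at least 3240 and 1758 in the other. In both lines 14 members had at least 2-fold more reads for the library's size in the acRIP-seq table. Over the acRIP-seq Inputs of the same label, 11 members were at least 2-fold above and 18 below Input for SW480 (18.5% and 14.3% of all genes), and 40 above and 8 below for DLD-1 (17.5% and 17.0%). The log2 ratios over these Inputs were -0.33 and 1.18 for RPS23, -2.56 and -1.05 for RPL41, -2.68 and -0.65 for RPL9, and -0.16 and 1.24 for RPS3A, so that 4 of the 6 highest members lost their place above Input in at least 1 line. RPL30, RPS20 and RPS24 were at least 2-fold above Input in both lines over the Inputs of the same label in either table and over the other Input of the RIP-seq table. RPL30 was there at 2.54 and 3.68 over the acRIP-seq Inputs. RPL30 and RPS24 were also among the 14 members with at least 2-fold more reads for the library's size in the acRIP-seq table. Their ratios over these Inputs set FPKM from gene models of different length against each other, and reads would give lower ratios. RPL13, RPL21, RPL26L1 (-0.05 under the SW480 labels), RPL28, RPL36AL, RPL37 and RPS21 were below Input under every pairing in both tables. Another 24 members were above it under every pairing (among them RPL6, RPL8, RPL10, RPL15, RPL23, RPL26, RPL29, RPL30, RPL35, RPL35A, RPL37A, RPS2, RPS3, RPS4X, RPS7, RPS13, RPS14, RPS19, RPS20, RPS24, RPS25 and RPS27A).

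Pseudogenes named after a member were counted in the same table. There were 1130 of them for 77 members, and their reads outnumbered those of the gene in RIP labelled SW480 for 7 members (RPL9, RPL21, RPL26, RPL39, RPL41, RPS10 and RPS28). Pseudogenes held 95.1% of the reads of RPL9 and its pseudogenes in the Input labelled SW480 and 85.9% in the RIP library of this label. For RPS23 these shares were 13.3% and 0.732%, and for RPS29, the gene with the largest gap between tables for SW480, 0.646% and 0.533%. Large shares and large gaps between tables thus did not always go together, and across the 81 members the Spearman rho of the 2 measures was 0.27 (SW480) and 0.33 (DLD-1). Summed with their pseudogenes, an alternative chosen after the data were seen, RPS23 had log2 ratios of 3.87 and 5.02, RPL41 of 2.05 and 3.42, and RPL9 of 0.13 and 1.46. RPL21 was then above Input in both lines (0.53 and 1.21), and RPL26 below it in both (-0.79 and -1.04). The reads of a gene and of its near-identical copies cannot be told apart with certainty, and the part of the pseudogenes in the ratios was not tested.

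ac4C on the members was read from the authors' acRIP-seq peaks, regions where the acRIP library exceeded Input. In the list labelled SW480, 128 of 9536 peaks lay in 72 members, and in that labelled DLD-1, 138 of 13964 peaks lay in 72 members, with 70 members in both lists. Among the 81 members with an Input of at least 1 FPKM, 70 had a peak in each list and 68 in both, where 44.2%, 48.8% and 34.4% of all 12324 genes had. High shares were not particular to the members. Of 73 mitochondrial ribosomal protein genes with such Inputs, 48 had a peak in the SW480 list, 67 in the DLD-1 list and 47 in both. For 20 non-ribosomal TOP RNAs, which are mRNAs apart from the non-coding SNHG1 and GAS5, these counts were 17, 20 and 17. The members' median Input levels were 177 and 139.8 FPKM, against 14.3 and 17.1 for mitochondrial ribosomal protein genes, and the part of abundance in these shares was not tested. The list called on the pooled libraries had 140 peaks in 73 members. No list had a peak in 11 members, which were RPL3L, RPL10L, RPL26, RPL29, RPL30, RPL32, RPL35, RPS13, RPS16, RPS28 and RPS29. RPL30, the member with the second highest RIP/Input ratio, was thus without a called peak. RPS23 had peaks in the SW480 list but not in the DLD-1 list, at chr5:82273418-82273626 (3′-UTR, fold over Input 32.3) and chr5:82276071-82276369 (coding sequence, 13.4) on the minus strand. RPS27L also had one in the SW480 list only (12.5), and RPL37 (9.44) and RPL41 (18.5) in the DLD-1 list only. Positions of peaks are those of the deposited lists on GRCh38 and run over introns where a peak has several blocks.

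Peaks in members had a median fold over Input of 11.8 in the SW480 list (range 1.33 to 763) and of 18.3 in the DLD-1 list (1.38 to 320.0), where all peaks had 19.5 and 14.6. The authors' p-value was listed as 0 for 58.6% and 58.0% of them, against 4.73% and 2.38% of all peaks. Member peaks thus had folds in the range of other peaks, and more of them had the smallest p-value. They covered a median of 268 and 283 bases, against 210.0 and 211 over all peaks. A motif site, a 12-base pattern of 4 Cs that are each followed by 2 bases of any kind, was listed for 53.9% and 55.1% of them, against 56.2% and 55.1% of all peaks. Per 100 bases, member peaks had 0.376 and 0.389 sites, fewer than the 0.513 and 0.464 of all peaks.

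The place of member peaks in the gene is given beside that of all peaks, with no test of the difference. The authors' class was 3′-UTR for 9.38% of member peaks in the SW480 list (95% Wilson interval 5.44 to 15.7) and 9.42% in the DLD-1 list (5.59 to 15.5), against 53.0% and 41.5% of all peaks. Coding sequence held 29.7% in both lists (22.5 to 38.1, and 22.7 to 37.8), against 24.3% and 38.4% of all peaks, and the class exon 60.9% in both, against 21.5% and 18.4%. No member peak had the class 5′-UTR, which 1.10% and 1.54% of all peaks had. The class exon names neither a UTR nor coding sequence. The shares of the other classes leave out peaks of this class, so they do not show that member peaks are rarer in UTRs. The centre of a member peak lay in the third of the gene span nearest the 3′ end in 44.5% (SW480) and 40.1% (DLD-1), and in the third nearest the 5′ end in 28.9% and 32.8%. Of all placed peaks in protein-coding genes, 83.6% and 71.8% lay nearest the 3′ end and 6.12% and 11.4% nearest the 5′ end. The intervals cover counting error only, and several peaks of a gene share its libraries and model.

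**Figure D4:**
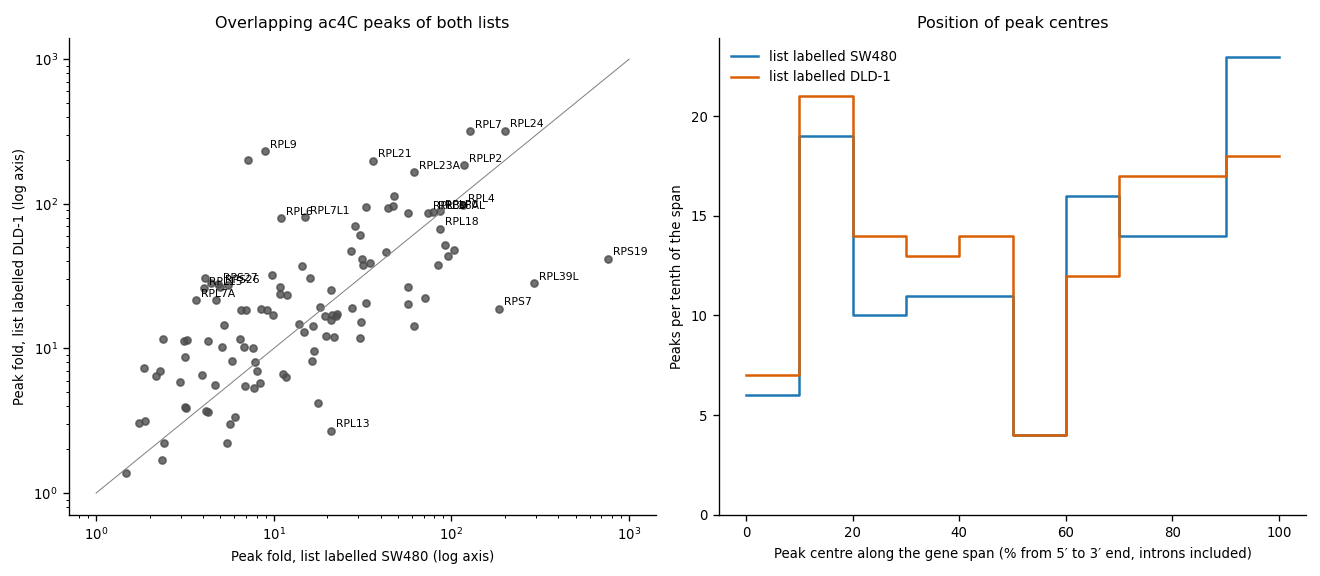
Left: fold over Input of 112 pairs of overlapping member peaks in the SW480 list (horizontal) and the DLD-1 list (vertical) on log axes, with the line of equality. Right: number of member peaks in each of 10 equal parts of the gene span from 5′ to 3′ end, introns included, by the peak's centre, in both lists, where 44.5% of centres in the SW480 list and 40.1% in the DLD-1 list lie in the third nearest the 3′ end.

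Peaks of both lists were then matched by position. A peak of the other list overlapped 110 of the 128 member peaks in the SW480 list (85.9%) and 110 of the 138 in the DLD-1 list (79.7%), against 54.9% and 36.3% of all peaks. The 112 overlapping pairs lay in 69 members, 100 of them overlapped by at least 50% of each peak, and 40 had the same start and end. The fold was higher in DLD-1 for 68 pairs and in SW480 for 44, with a median log2 difference, SW480 minus DLD-1, of -0.30, where pairs of all genes had 0.25.

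The pair with the highest smaller fold lay in RPL24, a protein at the bridge between the subunits, at chr3:101682461-101682670 (minus strand, exon), with folds of 200 (SW480) and 320.0 (DLD-1) and the same start and end in both lists. It had 0 motif sites. The next were in RPL7, in the 3′-UTR, with folds of 128 and 319, and in RPLP2, at chr11:812488-812850 in the SW480 list (plus strand, coding sequence), with 118 and 186. RPL4, a protein that lines the peptide tunnel, followed at chr15:66499334-66500315 (minus strand, coding sequence, 117 and 98.2), and RPLP0 at chr12:120196716-120197134 (minus strand, exon, 85.9 and 88.7), with positions as in the SW480 list. In these 5 pairs the peaks of RPLP0, RPLP2 and RPL4 had 3 to 5 motif sites each, and that of RPL7 had 0.

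Other shared peaks differed widely in fold. RPS19 had a peak at chr19:41864857-41871398 (plus strand, coding sequence, 4 blocks) with a fold of 763 in the SW480 list, the highest of all member peaks, and 41.7 in the DLD-1 list. RPS7 (186 and 18.8) had the same order. RPL9 (8.98 and 232) had the opposite one, in a pair of single-block exonic peaks. RPL39L had a peak in both lists (293 and 28.3), although its Input was at 0.171 FPKM (SW480) and 0 (DLD-1) in the acRIP-seq table. RPL13A, a large subunit protein also known as part of an interferon-induced translation silencer, had the most peaks, with 6 in the SW480 list and 5 in the DLD-1 list, and RPS7, a small subunit protein, had 4 in each. RPS24 had 2 shared peaks in coding sequence, with folds of 47.8 and 103 in the SW480 list and 113 and 48.2 in the DLD-1 list. Across 68 members with a peak in both lists the highest folds correlated at a Spearman rho of 0.63, and both lists rest on the abundance and the sequence of the same genes.

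Other genes of translation were set beside the members. The list of 22 non-ribosomal TOP RNAs held mRNAs and the non-coding SNHG1 and GAS5. Of these, 20 had Inputs of at least 1 FPKM, with medians of 0.00 under the SW480 labels and 0.99 under the DLD-1 labels, close to the members' -0.05 and 0.98. Over the other Input they were at 0.59 and 0.58. TPT1, a TOP mRNA for a small growth-related protein, stood at 629.8 FPKM in RIP and 70.4 in Input labelled SW480, and 666 and 62.7 in those labelled DLD-1, and EEF1A1, the elongation factor that brings tRNA to the ribosome, at 1131 FPKM in RIP and 484 in Input labelled SW480, and 1665 and 370.2 in those labelled DLD-1. EEF2, the translocation factor, stood at 868 FPKM in RIP and 1618 in Input labelled SW480, and 1305 and 1029 in those labelled DLD-1. TPT1 and EEF1A1 were above both Inputs in each RIP library, with log2 ratios of 3.14 and 3.39 and of 1.22 and 2.17, whereas EEF2 was at -0.90 and 0.34, and at -0.25 and -0.31 over the other Input. FAU, a fusion of a ribosomal protein with a ubiquitin-like protein, had log2 ratios of 0.78 and 0.94, and RACK1, a scaffold on the small subunit, -0.49 and -0.04.

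The 73 mitochondrial ribosomal protein genes with Inputs of at least 1 FPKM had medians of 0.43 under the SW480 labels and 0.36 under the DLD-1 labels, and 22 of them (30.1%) had opposite signs, against 45.7% of the cytosolic members. Over the other Input the 2 families were closer, with medians of 0.37 and 0.51 for the mitochondrial genes and 0.27 and 0.61 for the members. There, 9 mitochondrial genes (12.3%) had opposite signs, against 4.94% of the members. Above the other Input in both lines were 53 of the 73 mitochondrial genes and 59 of the 81 members. The Inputs of the mitochondrial genes did not have the order of the cytosolic genes, since the median log2 difference between the Inputs, SW480 minus DLD-1, was -0.15, against 0.42. Members with a TOP tract had medians of -0.11 and 0.95 (n = 54), and those with a window but no tract 0.18 and 0.37 (n = 12). Over the other Input these were 0.25 and 0.59 with a tract, and 0.27 and 0.50 without.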

How the data were processed

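RNA of SW480 and DLD-1 was measured by RIP-seq (NAT10 antibody), acRIP-seq (ac4C antibody) and Input sequencing, with 1 library per group. The submitters' processing notes name cutadapt 2.5, HISAT2 2.1.0 and GRCh38. The peak caller is not given in the sources used here. The authors deposited FPKM per gene for RIP and Input, a second expression table with the acRIP-seq Inputs in a unit its header does not name (treated as FPKM), and peak lists with a fold, a p-value and a class per peak. Columns of the deposited RIP-seq table with the authors' own IP-to-input ratio were not used. The RIP-seq results of the paper mention IgG where its methods, the tables and the labels name Input, and Input was used as named.

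Samples were grouped by their labels. log2((RIP FPKM + 1)/(Input FPKM + 1)) was computed for genes with an Input of at least 1 FPKM in both lines, and 2-fold was the limit for a call, without a test. Whole reads and gene lengths behind the FPKM of the RIP-seq table were solved from its values and tested on simulated data, and gave Poisson counting SEs, which cover counting error only. In the acRIP-seq table such reads are lower bounds. PCR duplicates make these errors too small. Members were named by extreme mean ratio, opposite sign, Input difference or highest peak fold, with stalk, disease and paralogue members added. The members and lists were chosen with earlier results of these data known. Alternatives were the other Input, the acRIP-seq Inputs, centring, another filter or pseudocount, and summed pseudogenes. Python 3.11.15, NumPy 2.4.6, pandas 2.3.3, SciPy 1.17.1 and Matplotlib 3.10.9 were used. Start sequences came from RefSeq (GRCh38.p14). A few members are counted but not reported here by name.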

Additional observations from a re-analysis of the deposited data

Results flagged for a closer look

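The following log2 RIP/Input ratios had opposite signs under the 2 labels. Signs were taken without a margin, and that of RPL22L1 under the SW480 labels lay within counting error. The difference could not be tested with 1 library per group and was not tested. It is given as SW480 labels minus DLD-1 labels, and it moves with the exchange of marker levels between the RIP and Input libraries, whose part in it was not tested. The median over 81 members differed by -1.03. The stalk proteins RPLP0, RPLP1 and RPLP2 differed by -1.39, -0.99 and -2.36. Among small subunit genes the difference was -1.08 for RPS6, -2.40 for RPS10, -2.13 for RPS15A, -1.14 for RPS18, -2.12 for RPS27, -2.43 for RPS28 and -2.05 for RPS29. Among large subunit genes it was -0.65 for RPL3, -1.31 for RPL4, -1.55 for RPL5, -1.69 for RPL7, -0.77 for RPL10A, -0.82 for RPL11, -0.57 for RPL19, -0.82 for RPL22, -2.03 for RPL24 and -1.28 for RPL39. The paralogue RPL22L1 differed by -1.82 in the same direction, whereas RPL7L1 (0.85) and RPS27L (2.26) differed in the opposite one.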

How the results depend on the processing

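No paired analysis was possible because each group held 1 library and no test was run. In all values below, the first is for SW480 and the next for DLD-1 labels unless said otherwise, and the causes of the changes were not tested. Centring on protein-coding genes moved the median ratio of the members from -0.05 and 0.98 to -0.23 and 0.91. Over the other-label Input it was 0.27 and 0.61, with 20 members at least 2-fold above Input for SW480, 6 and 2 at least 2-fold below it, and 4 with opposite signs. Over the acRIP-seq Input of the same label the SW480 median was -0.21 and 8 members were at least 2-fold below Input for DLD-1. Over the acRIP-seq Input of the other label the medians were 0.30 and 0.55, with 25 above and 9 below 2-fold for DLD-1 and 10 of opposite sign. Without the 8 paralogues the SW480 median was -0.11 and 0 members lay at least 2-fold below Input for DLD-1, and with pseudogenes summed, a choice made after the data were seen, 2 did. The median difference between Inputs was 0.49 with the acRIP-seq table. Without scaling, 27 (SW480) and 28 (DLD-1) members were at least 2-fold apart between the Input tables, against 15 and 14. With peaks at or above the median fold of their list, 39 members had one in SW480 and 34 in both lines. Among ratios of named members that were at least 2-fold from Input, 8 changed sign over the acRIP-seq Input of the same label: RPL41 (-2.56 and -1.05), RPL9 (-2.68 and -0.65), and RPS10 (0.32), RPS23 (-0.33), RPS3A (-0.16) for SW480 and RPS29 (-2.24) for DLD-1. Over that of the other label 10 did: RPL41 (-1.91 and -1.70), RPL9 (-1.89 and -1.45), RPLP2 (0.034) and RPS10 (0.30) for SW480, and RPL13A (-0.23), RPL7 (-0.62), RPS26 (-1.16) and RPS29 (-4.70) for DLD-1. Under the other alternatives none of the ratios in these counts changed sign. RPL21, which the counts do not include, did so with pseudogenes summed (-1.11 to 0.53 for SW480). Some smaller ratios, which are not in these counts, also changed sign, such as RPLP0 (-0.22 to 0.34 for SW480 over the other-label Input) and RPL26 (0.39 to -0.79 for SW480 with pseudogenes summed). Beyond these, 1 library per group, gene models that differ between tables and reads shared with pseudogenes limit every ratio, and RPS10, with 32 reads in the Input labelled DLD-1, had the widest counting error.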
